A study of Mus musculus with 4 samples.

Results

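The genes described are 42 genes of DNA replication and S phase, taken by symbol from the 25796 genes of the table and read, for each gene, from the transcript with the highest mean over the 4 libraries. All 42 were listed. They cover 9 roles: origin licensing (10 genes), activation of the replicative helicase (6), polymerases and primase (5), the sliding clamp and its loader (6), single-strand binding (2), Okazaki fragment maturation (2), nucleotide supply (4), chromatin and DNA methylation upkeep (3) and control of S phase (4). The libraries were the inputs of an m6A-seq experiment, that is, the RNA before an antibody enriches fragments carrying N6-methyladenosine. Total RNA came from mouse colon epithelial cells detached with EDTA and DTT and kept with a ROCK inhibitor. There were 2 WT libraries and 2 with the label Ythdf1 KO. The Ythdf1 protein reads m6A in the cytoplasm. The sources used here do not give the strain, the age, how the allele was made, or whether replicates are separate mice, so p-values here reflect spread between libraries that may be technical.

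Values are normalised read counts, that is, the reads of each library over its size factor. A single read was worth 1.13 in WT 1, 1.01 in WT 2, 0.969 in KO 1 and 0.827 in KO 2, and the most abundant transcripts held between 21686140 and 30951138 reads per library. Transcript lengths were not used here, so levels are compared between libraries and never between genes. The gene named by the labels was not lower in the KO-labelled libraries. Ythdf1 (NM_173761.3, mm10 chr2:180904377-180920936) stood at 1088 in WT 1, 775.4 in WT 2, 1752 in KO 1 and 1737 in KO 2, a ratio of means of 1.87, with a limma-trend adjusted p of 0.759 and a q-value of 0.0145 in the authors' deposited table. A read count over the whole transcript may miss a deletion of part of it, and the sources used here do not say which part was deleted. The groups are therefore called by their labels, and KO 1 and KO 2 stand below for the libraries labelled Ythdf1 KO replicate 1 and replicate 2.

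Replication starts from origins that are licensed in G1, when the origin recognition complex (Orc1 and Orc6 are subunits) with Cdc6 and Cdt1 loads the ring of Mcm2 to Mcm7 onto DNA. In S phase, Cdc45 and the GINS complex join that ring to form the active helicase, Mcm10 helps to start it, and RPA coats the single strands. DNA polymerase alpha with primase lays down primers, polymerase epsilon extends the leading strand and polymerase delta the lagging strand, each tethered by the Pcna clamp that replication factor C loads. Many of these genes are transcribed by E2F factors after cyclin-dependent kinases inactivate the retinoblastoma protein. In the colon, dividing cells sit in the lower part of the crypt, and differentiated cells near the surface leave the cycle.

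Promoters of some of the genes whose labelled groups did not overlap are shown, because this E2F control is the feature the module is known for. They are not ranked by how far the groups lay apart. RefSeq promoter windows (GRCm38.p6, from 250 bases before to 50 bases after a gene's start, 300 bases) were matched by symbol for 35 of the 42 genes, with 42 windows in all. For the members only, a chromosome that holds none of their listed transcripts was left out of the matching. No window was matched for Ccne2, Gins1, Gins2, Gins4, Mcm4, Pole and Rfc2. Below, capitals mark E2F-type matches (TTTCCCGC, TTTCGCGC, TTTGCCGC or TTTGGCGC, on either strand) and CCAAT boxes (CCAAT, on either strand), and each sequence runs 5′ to 3′ on the strand of the gene. Overlapping matches of 1 motif were joined and counted once. Mcm6 (chr1:128359656-128359955, minus strand), Pold1 (chr7:44548766-44549065, minus), Lig1 (chr7:13278576-13278875, plus) and Hells (chr19:38930740-38931039, plus) hold an E2F-type match. Rrm2 (chr12:24708004-24708303, plus), the member with the smallest unadjusted p, holds a CCAAT box and no E2F-type match. Tyms (chr5:30073576-30073875, minus) holds neither.
Mcm6: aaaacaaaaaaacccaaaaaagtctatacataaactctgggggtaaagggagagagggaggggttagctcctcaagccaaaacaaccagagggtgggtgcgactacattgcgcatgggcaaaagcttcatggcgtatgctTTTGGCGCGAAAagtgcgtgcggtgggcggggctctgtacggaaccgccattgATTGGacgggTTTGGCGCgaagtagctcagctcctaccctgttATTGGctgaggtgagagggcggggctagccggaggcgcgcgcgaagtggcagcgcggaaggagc
Pold1: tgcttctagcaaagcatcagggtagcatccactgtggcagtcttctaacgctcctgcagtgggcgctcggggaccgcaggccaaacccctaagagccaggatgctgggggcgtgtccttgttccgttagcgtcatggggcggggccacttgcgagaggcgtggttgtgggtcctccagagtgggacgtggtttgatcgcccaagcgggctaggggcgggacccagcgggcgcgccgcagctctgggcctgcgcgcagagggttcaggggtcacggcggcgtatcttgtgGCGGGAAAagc
Lig1: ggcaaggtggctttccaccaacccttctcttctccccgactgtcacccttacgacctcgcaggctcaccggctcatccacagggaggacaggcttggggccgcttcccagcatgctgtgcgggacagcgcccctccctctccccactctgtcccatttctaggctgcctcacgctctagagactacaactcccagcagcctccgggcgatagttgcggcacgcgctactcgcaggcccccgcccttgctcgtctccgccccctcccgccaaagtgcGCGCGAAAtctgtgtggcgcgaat
Hells: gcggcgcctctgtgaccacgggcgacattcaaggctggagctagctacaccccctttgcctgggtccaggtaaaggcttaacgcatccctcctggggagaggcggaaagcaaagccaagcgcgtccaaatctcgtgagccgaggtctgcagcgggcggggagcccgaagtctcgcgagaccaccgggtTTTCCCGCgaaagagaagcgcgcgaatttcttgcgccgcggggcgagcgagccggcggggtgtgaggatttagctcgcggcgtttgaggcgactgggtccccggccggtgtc
Rrm2: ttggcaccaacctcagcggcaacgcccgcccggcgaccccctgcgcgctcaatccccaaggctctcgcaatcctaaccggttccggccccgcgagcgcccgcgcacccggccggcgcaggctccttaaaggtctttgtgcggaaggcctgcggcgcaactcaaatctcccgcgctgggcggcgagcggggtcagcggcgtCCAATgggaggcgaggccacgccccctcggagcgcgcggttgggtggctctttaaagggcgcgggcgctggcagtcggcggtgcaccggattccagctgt
Tyms: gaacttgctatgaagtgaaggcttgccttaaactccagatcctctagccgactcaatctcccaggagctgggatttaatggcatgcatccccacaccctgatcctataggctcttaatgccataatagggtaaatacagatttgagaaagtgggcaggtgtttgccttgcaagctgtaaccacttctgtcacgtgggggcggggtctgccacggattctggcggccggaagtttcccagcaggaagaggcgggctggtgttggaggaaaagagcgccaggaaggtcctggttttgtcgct

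Counted from the start as 0, the first base of the E2F-type matches lay at -110 and -47 in Mcm6, at 39 in Pold1, at 26 in Lig1 and at -62 in Hells. The Hells window belongs to a start 100 bases from that of its most abundant transcript. E2F-type matches were found in 35.7% of the 42 windows, 15 of them for 15 genes, against 2.26% of all 32851 windows. The other genes with one were Cdc6, Cdt1, Dnmt1, Gins3, Mcm3, Mcm5, Mcm7, Orc1, Pola1, Rfc3 and Uhrf1. In Dnmt1 and Uhrf1 the match lay in the window of a start 356 and 976 bases from that of the most abundant transcript. The window of Orc1 belongs to a start 3834 bases from that of its most abundant transcript. CCAAT boxes were found in 59.5% of the windows against 37.4% of all, and the CHR element of late cell cycle genes (TTTGAA, either strand) in 11.9% against 17.9%. Windows of other replication genes were close to the members, with an E2F-type match in 33.3% of 60. Windows of 21 mitosis genes held an E2F-type match in 4.55% of cases and a CHR element in 77.3%. A match is a description of letters, and the absence of one says only that these spellings are not in this window.

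**Figure D1:**
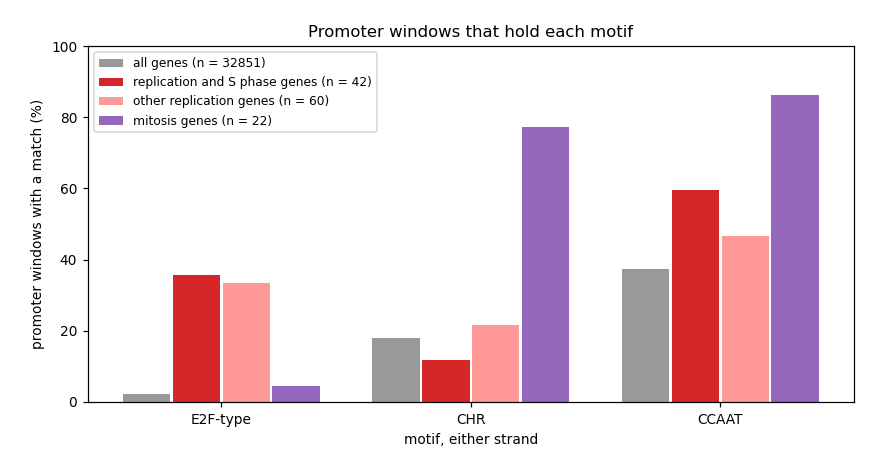
Percentage of RefSeq promoter windows with at least 1 match to an E2F-type motif, a CHR element or a CCAAT box, for all genes, the 42 windows of replication and S phase genes, other replication genes and mitosis genes. E2F-type matches reach 35.7% in the replication and S phase genes, 33.3% in other replication genes and 2.26% in all genes, and CHR elements reach 77.3% in the mitosis genes.

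Between the labelled groups, most of the 42 genes had a somewhat higher mean log2 level in the KO-labelled libraries, with large exceptions, and none passed the test across all genes. The median log2 difference, KO-labelled minus WT on the log2(value + 1) scale, was 0.35 with a quartile range from -0.38 to 0.84, against -0.09 over the 23116 genes tested. The members' median log2 level itself varied by 0.21 between replicates (pooled SD), mostly between KO 1 and KO 2. That level was 8.80 in WT 1, 8.76 in WT 2, 8.91 in KO 1 and 9.33 in KO 2. The difference was above 0 in 28 genes, 66.7% against 45.1% of all genes. In 11 genes both KO-labelled values lay above both WT values (26.2%, against a background of 14.3% of all genes): Orc6, Cdt1, Mcm6, Pold1, Lig1, Rrm2, Tk1, Hells, Uhrf1, Dnmt1 and Ccne2. In 5 genes both lay below (11.9%, against 21.4%): Orc1, Gins1, Rfc5, Tyms and Slbp. Over all genes, those with low values were more often lower in the KO-labelled libraries, so the members were also set against the 7431 genes with a mean of at least 500. There 7 of 19 members lay above both WT (36.8%, against 22.7%) and 2 below (10.5%, against 12.8%), with a median of 0.37 against 0.07. The 23 members with a mean under 500 had a median of 0.34 against -0.38, with 4 above (17.4%, against 10.4% of all genes in that range) and 3 below (13.0%, against 25.5%). In bulk samples, fewer cells of a type and less RNA per cell cannot be told apart.

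No gene of the table passed a limma-trend adjusted p of 0.05 (0 of 23116, 0.0%), and the smallest adjusted p of any gene was 0.759. At an unadjusted p under 0.05, 4 members were higher in the KO-labelled libraries (Rrm2, Pold1, Lig1 and Hells) and 0 were lower, where 1.92% of all genes were higher and 3.52% lower, 1257 genes in all. Other tools on recovered read counts differed: edgeR's quasi-likelihood test called 0 genes (1073 at an unadjusted p under 0.05), and DESeq2 called 1431, of which the members Rrm2 (adjusted p 0.0115) and Pold1 (0.0217) were 2. Higher DESeq2 calls made up 1.88% of the genes with an adjusted p. In the authors' deposited table, the same pair had a q-value under 0.05, with log2 fold changes of 1.55 (q = 0.0166) for Rrm2 and 0.87 (q = 0.0373) for Pold1. By that table, 1.24% of all genes were higher at this threshold and 3.23% lower, taking the most abundant transcript. With 2 libraries against 2, an exact permutation test of a single gene cannot give a p below 0.333.

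The shift rested largely on KO 2. Without KO 2 the members' median difference was 0.051, without WT 1 0.16, without WT 2 0.19 and without KO 1 0.52. Taken alone, KO 1 lay above both WT libraries in 15 members and below both in 14, where 31.4% of all genes lay above and 39.1% below. KO 2 alone lay above in 23 members and below in 8, against 31.9% and 38.7% of all genes. KO 2 was the highest of the 4 libraries in 19 members (45.2%), against 24.2% of all genes and 27.1% of the genes with a mean of 100 to 4000, and the lowest in 5. Each of the other libraries was the highest in 7 or 8 members. KO 2 was also the library with the most reads. The part of depth in the result was not tested.

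**Figure D2:**
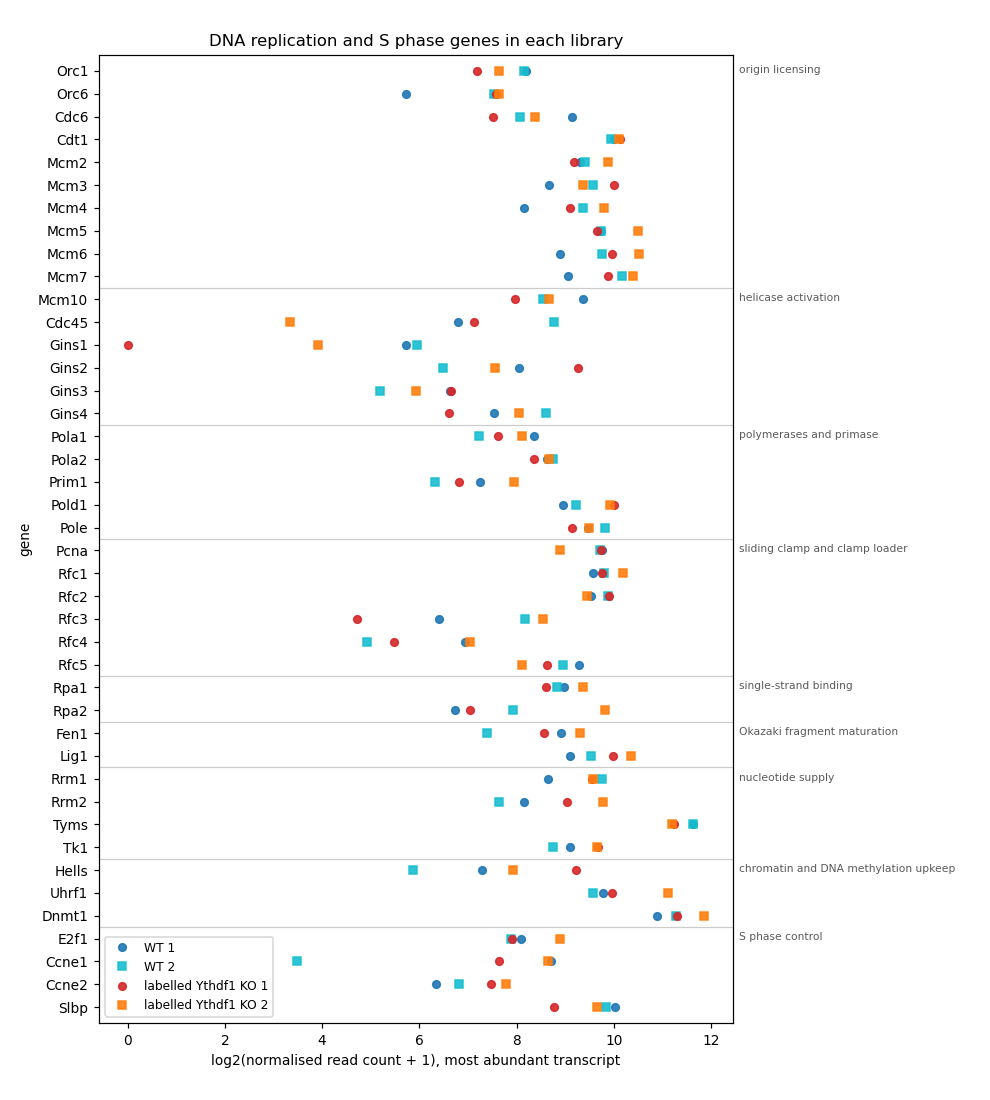
Level of each of the 42 genes in each of the 4 libraries, as log2(normalised read count + 1) of the most abundant transcript, grouped by role. KO 2 (orange squares) is the highest of the 4 points in 19 genes, and Gins1 is at 0 in KO 1.

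In origin licensing, 8 of 10 genes had a difference above 0, with a median of 0.44, and the Mcm2 to Mcm7 genes all had a KO-labelled mean above the WT mean. Mcm6 (NM_001313695.1, chr1:128331575-128359705), a subunit of the ring, stood at 473.4 in WT 1, 863.2 in WT 2, 1001 in KO 1 and 1461 in KO 2. The groups did not overlap, and the ratio of means was 1.84, with a log2 difference of 0.92 ± 0.40 (SE) and a limma-trend adjusted p of 0.759. The other ring genes overlapped between groups: the ratio of means was 1.16 for Mcm2 (652.7 ± 33.6 in WT and 760.0 ± 258 in KO-labelled libraries, SD, n = 2 each here and below), 1.45 for Mcm3 (582.6 ± 247 and 844.6 ± 266), 1.53 for Mcm4 (469.6 ± 264 and 717.2 ± 240), 1.32 for Mcm5 (852.4 ± 7.56 and 1124 ± 449) and 1.37 for Mcm7 (835.8 ± 433 and 1145 ± 285). WT 1 was the lowest library for Mcm3, Mcm4, Mcm6 and Mcm7. KO 1 was the lowest for Mcm2 (577.8) and Mcm5 (806.6), whose higher KO-labelled means came from KO 2 (942.1 and 1442). Cdt1 (NM_026014.3, chr8:122568015-122573130), which helps to load the ring, was close in all libraries, with 1026 in WT 1, 979.3 in WT 2, 1111 in KO 1 and 1106 in KO 2. Its groups did not overlap, but the ratio was only 1.11, a log2 difference of 0.15 ± 0.26. Orc6 (NM_019716.2, chr8:85299632-85308279) read 51.85 in WT 1, 184.8 in WT 2, 190.0 in KO 1 and 196.9 in KO 2. WT 1 alone was far off, and WT 2 lay just under both KO-labelled values, with a log2 difference of 0.97 ± 0.87. Orc1 (XM_011240469.2, chr4:108575620-108616030) went the other way, with 290.8 in WT 1, 283.7 in WT 2, 145.4 in KO 1 and 197.7 in KO 2. Its WT values were 1.67-fold higher, a log2 difference of -0.76 ± 0.56 with an adjusted p of 0.816. Cdc6, an ATPase that acts with the origin recognition complex, averaged 416.6 ± 208 in WT and 257.8 ± 107 in the KO-labelled libraries, which overlapped.

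Genes that turn the loaded ring into a helicase had a median difference of -0.69, and 2 of the 6 were above 0. Gins1 (XM_006500133.2, chr2:150909556-150927716), a GINS subunit, was read 46 times in WT 1 and 60 times in WT 2, 0 times in KO 1 and 17 times in KO 2. These reads gave values of 51.85, 60.58, 0 and 14.06. The groups did not overlap, but the counts were low, the log2 difference was -3.88 ± 2.59, and 0 reads allow a value of up to 2.91 in KO 1 (3 reads, counting error only). The other isoforms of Gins1 were less far apart: NM_027014.1 held 51.85 in WT 1, 19.18 in WT 2, 27.15 in KO 1 and 14.06 in KO 2. Cdc45 varied widely within both groups, with 109.3 in WT 1, 433.1 in WT 2, 138.6 in KO 1 and 9.10 in KO 2. Its KO 2 value rested on 11 reads and its groups overlapped. Gins4 (284.7 ± 143 and 179.5 ± 118) and Mcm10 (514.3 ± 200 and 328.0 ± 113) had lower KO-labelled means, and Gins2 (176.9 ± 124 and 399.3 ± 300) and Gins3 (66.70 ± 44.4 and 79.64 ± 27.2) higher ones, all with overlapping groups.

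Among the polymerases, Pold1 was the gene with little spread and a clear gap. Pold1 (NM_011131.3, chr7:44532744-44548815), the catalytic subunit of polymerase delta, stood at 497.1 in WT 1, 595.7 in WT 2, 1028 in KO 1 and 972.7 in KO 2. Both KO-labelled values lay well above both WT values, with a ratio of means of 1.83, a log2 difference of 0.88 ± 0.32 and a limma-trend adjusted p of 0.759. The catalytic subunit of polymerase epsilon, Pole, had a lower KO-labelled mean and overlapping groups (800.5 ± 136 in WT and 641.9 ± 111 in KO-labelled libraries). The polymerase alpha and primase genes overlapped between groups: Pola1 averaged 237.6 ± 126 and 236.0 ± 58.1, Pola2 412.2 ± 28.2 and 367.3 ± 56.1, and Prim1 114.9 ± 51.1 and 178.6 ± 94.9.

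The clamp and its loader showed no shared direction, with 2 of 6 genes above 0 and a median of -0.22. Rfc5 (NM_028128.1, chr5:117379145-117389023), a clamp loader subunit, stood at 624.4 in WT 1, 492.7 in WT 2, 392.6 in KO 1 and 276.3 in KO 2. The groups did not overlap, the WT mean was 1.67-fold higher, and the log2 difference was -0.75 ± 0.43 with an adjusted p of 0.775. Pcna was nearly level in 3 libraries (869.0 in WT 1, 839.0 in WT 2 and 852.2 in KO 1) and at 474.8 in KO 2. So in KO 2, the library that was most often the highest, the clamp gene had its lowest value. Rfc1 (825.5 ± 94.7 and 1016 ± 214), Rfc2 (839.6 ± 143 and 828.9 ± 184) and Rfc4 (75.51 ± 65.4 and 87.57 ± 62.1) overlapped. Rfc3 spread widely, with 83.41 in WT 1, 285.7 in WT 2, 25.21 in KO 1 and 373.1 in KO 2. Single-strand binding genes had higher KO-labelled means through KO 2: Rpa2 stood at 104.8 and 242.3 in WT, 130.9 in KO 1 and 899.1 in KO 2, and Rpa1 averaged 477.8 ± 30.4 and 520.6 ± 189.

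Of the genes that finish Okazaki fragments, Lig1 had groups that did not overlap. Lig1 (NM_010715.2, chr7:13278826-13311427), the ligase that seals the fragments, stood at 545.5 in WT 1, 737.0 in WT 2, 1004 in KO 1 and 1310 in KO 2. The ratio of means was 1.80, with a log2 difference of 0.85 ± 0.33 and an adjusted p of 0.759. Fen1, the flap nuclease, averaged 325.6 ± 223 in WT and 505.7 ± 183 in KO-labelled libraries, with overlap.

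Nucleotide supply held the member with the smallest unadjusted p as well as one that differed the other way. Rrm2 (NM_009104.2, chr12:24708254-24714146), the S phase subunit of ribonucleotide reductase, stood at 284.0 in WT 1, 197.9 in WT 2, 527.4 in KO 1 and 882.6 in KO 2. Both KO-labelled values were clear of both WT values, the ratio of means was 2.93, and the log2 difference was 1.52 ± 0.48 with a limma-trend adjusted p of 0.759. Its partner Rrm1, the large subunit, averaged 629.5 ± 328 and 756.4 ± 9.94, with the KO-labelled values between the WT values. Tk1 (XM_006533150.3, chr11:117815523-117825810), thymidine kinase of the salvage pathway, stood at 550.0 in WT 1, 429.1 in WT 2, 816.3 in KO 1 and 802.4 in KO 2. That is a ratio of 1.65 and a log2 difference of 0.74 ± 0.35. The next most abundant Tk1 transcript had a narrower gap, with 606.4 in WT 1, 402.8 in WT 2, 744.6 in KO 1 and 632.8 in KO 2. Over summed Tk1 transcripts the log2 difference was 0.49. Tyms, which makes thymidylate from dUMP, differed in the other direction and with little spread: 3161 in WT 1, 3164 in WT 2, 2423 in KO 1 and 2356 in KO 2. The WT mean was 1.32-fold higher, a log2 difference of -0.40 ± 0.18 with an adjusted p of 0.759. Its most abundant listed transcript carries a non-coding accession (NR_033402.1, chr5:30058200-30073625).

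All 3 genes of chromatin and DNA methylation upkeep had both KO-labelled values above both WT values, a pattern held by 14.3% of all genes and 22.7% of those with a mean of at least 500, with a median difference of 0.87. Hells (XM_006526699.3, chr19:38931090-38970470), a chromatin remodeller needed for DNA methylation, stood at 155.5 in WT 1, 57.55 in WT 2, 596.2 in KO 1 and 243.2 in KO 2. Its ratio of means was 3.94 and its log2 difference 2.00 ± 0.80, and KO 1 was the highest library. Uhrf1 (NM_010931.3, chr17:56303337-56323486), which brings Dnmt1 to newly copied DNA, stood at 876.9 and 755.2 in WT, 998.6 in KO 1 and 2232 in KO 2. The ratio was 1.98 and the log2 difference 0.87 ± 0.42, with KO 1 little above WT 1. Dnmt1 (NM_001314011.1, chr9:20907206-20952979), the maintenance methyltransferase, stood at 1897 and 2496 in WT, 2517 in KO 1 and 3694 in KO 2. KO 1 was barely above WT 2, and the ratio of 1.41 (log2 difference 0.49 ± 0.27, adjusted p 0.765) came mainly from KO 2.

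S phase control genes were mixed. Ccne2 (NM_001282943.1, chr4:11191709-11204779), a cyclin E gene, stood at 80.03 in WT 1, 112.1 in WT 2, 176.4 in KO 1 and 218.4 in KO 2, a log2 difference of 1.04 ± 0.73. The other cyclin E gene, Ccne1, spread within WT from 419.3 in WT 1 to 10.10 in WT 2 (372 and 10 reads), with 198.7 and 401.2 in KO 1 and KO 2. E2f1 averaged 253.4 ± 24.2 in WT and 356.2 ± 167 in KO-labelled libraries, which overlapped. Slbp (NM_009193.2, chr5:33640055-33652574), which binds the stem-loop of histone mRNAs, stood at 1037 and 916.7 in WT, 435.3 in KO 1 and 799.0 in KO 2. It was lower in both KO-labelled libraries, with a WT mean 1.58-fold higher and a log2 difference of -0.72 ± 0.39.

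**Figure D3:**
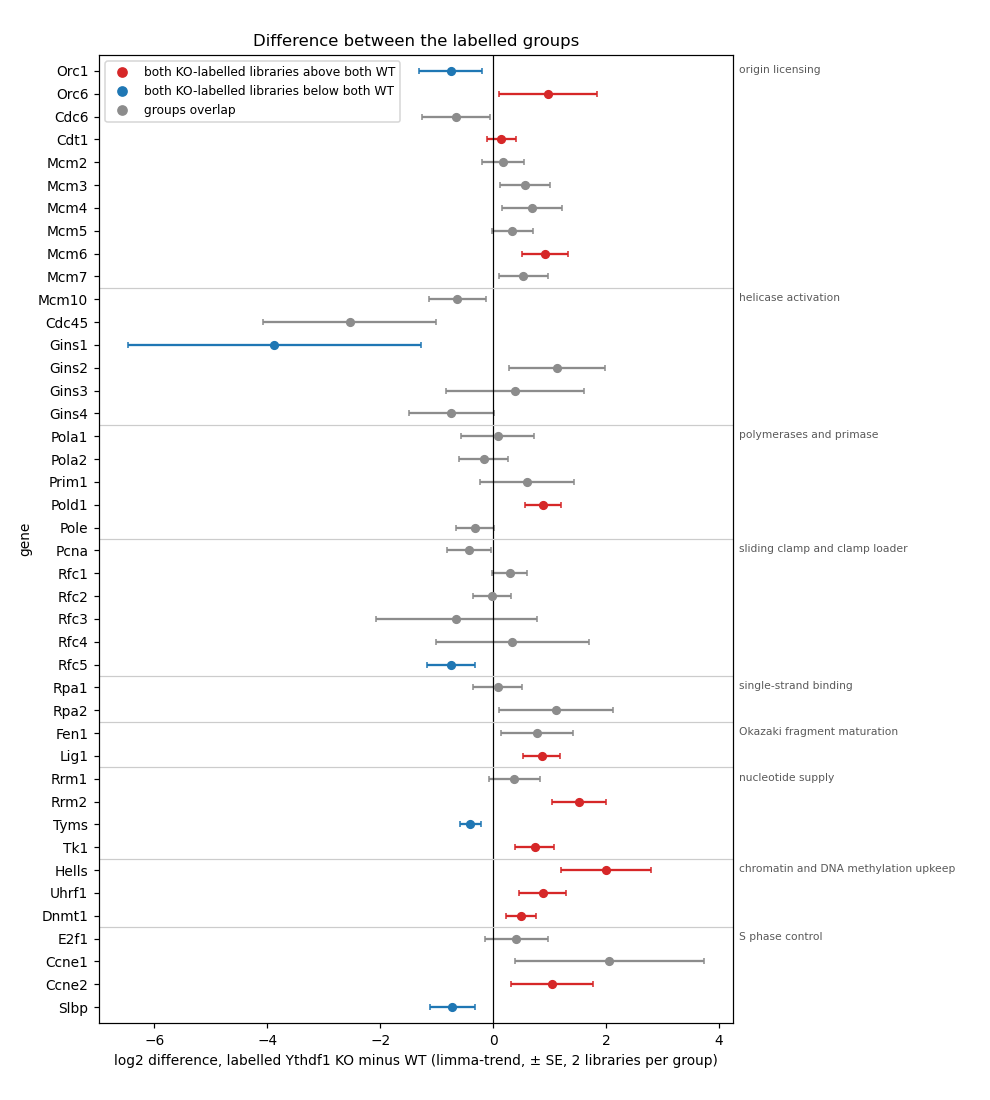
Log2 difference between the labelled groups (KO-labelled minus WT, limma-trend, bars ± SE, 2 libraries per group) for each of the 42 genes, grouped by role. Red marks the 11 genes with both KO-labelled values above both WT values, blue the 5 with both below, and grey the genes whose groups overlap. Gins1 has the lowest difference, -3.88, and a wide bar of 2.59.

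**Figure D4:**
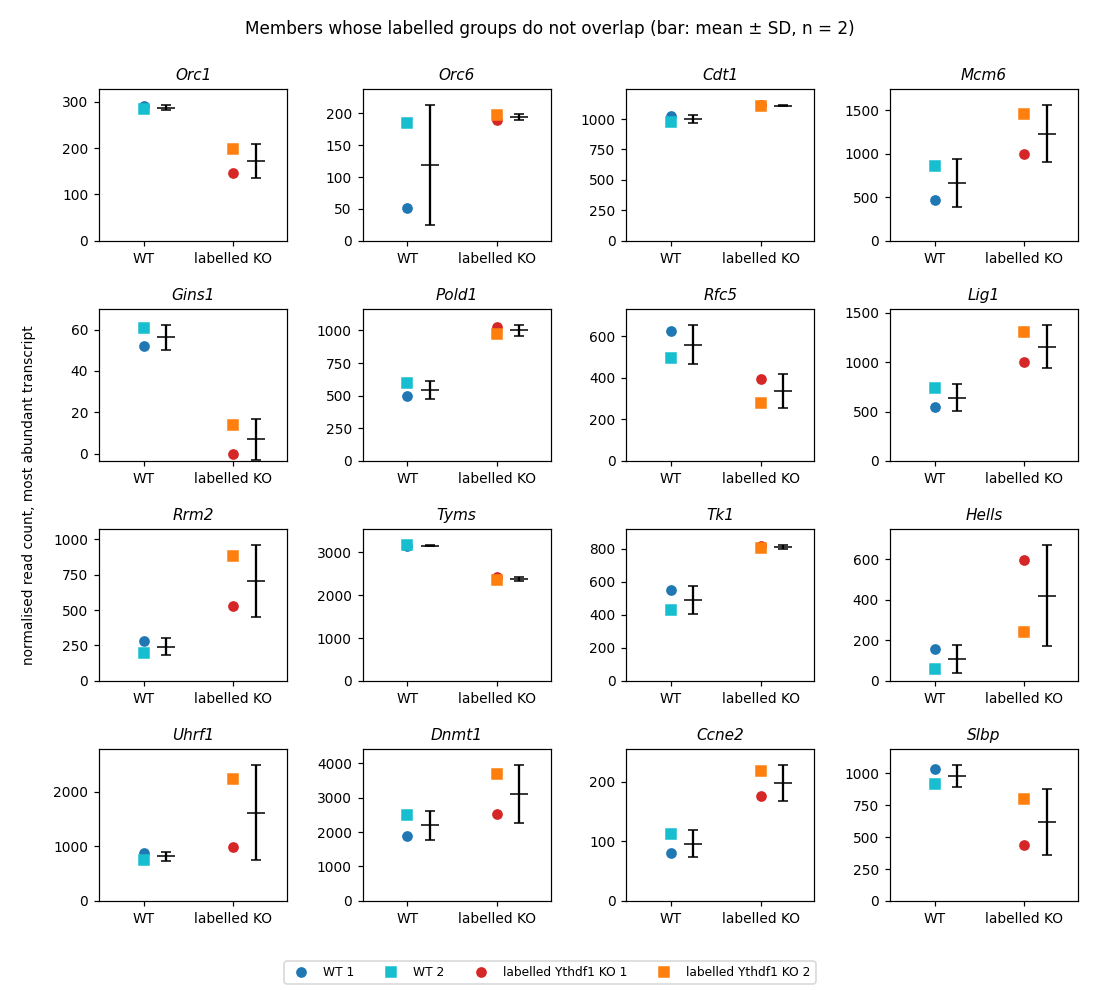
Normalised read count in each library for the 16 genes whose labelled groups do not overlap, with mean ± SD of each group (n = 2). For the most abundant transcripts shown, gaps are wide and spreads small in Pold1, Tk1 and Tyms. For Cdt1, Dnmt1 and Orc6 the nearest libraries of the 2 groups lie close together. The gap of Tk1 is narrower in its next most abundant transcript.

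Replicates of the same label often lay far apart. WT 1 and WT 2 differed by over 2-fold in 16 of the 42 genes (38.1%), and KO 1 and KO 2 in 11 (26.2%). Among genes with a mean of 100 to 4000 the shares were 21.7% and 26.8%, and among the 39 members in that range 35.9% and 23.1%. The WT libraries were farthest apart in Ccne1, Cdc45, Orc6, Rfc3 and Rfc4.

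Isoforms gave the same direction for most members. The 42 genes had 119 listed transcripts, and of the 24 genes with more than 1, 18 had every transcript differing in the same direction. Cdc6, E2f1, Pola1, Pola2, Tk1 and Tyms had transcripts on both sides. Both KO-labelled values lay above both WT values in 6 of 6 Uhrf1 transcripts, 7 of 7 of Ccne2, 3 of 3 of Lig1 and 2 of 2 of Mcm6, and in 5 of 7 of Dnmt1, 3 of 5 of Tk1, 2 of 3 of Hells, 2 of 3 of Orc6 and 2 of 5 of Mcm7. They lay below in 4 of 5 Tyms transcripts, the coding ones included, in 2 of 2 of Orc1, 2 of 3 of Slbp, 2 of 4 of Cdc45 and 1 of 2 of Pole, and in only 1 of 3 each of Gins1 and Mcm10. Isoforms share reads, so these are not independent measurements. Of the 42 genes, 7 overlap another listed gene, and the sources used here do not say whether counting used strand, so reads of such pairs cannot be told apart. The largest overlaps were 5622 bases of Ccne2 with Ints8 and 3717 bases of Orc1 with Prpf38a, both on opposite strands. Those of Rfc4 with Eif4a2 (185 bases), Gins2 with Gse1 (118), Cdc45 with Ufd1l (48), Rfc5 with LOC102632031 (45) and E2f1 with Necab3 (7) were short.

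The members were also counted by E2F-type promoter match. Of all genes, 45.1% had a difference above 0, 14.3% lay above both WT libraries and 21.4% below. Among genes with a mean of at least 500, these shares were 58.8%, 22.7% and 12.8%. Of the 15 members with such a match, 12 had a difference above 0, with a median of 0.49, 7 lay above both WT libraries and 1, Orc1, below. Of the 20 members with a window and no such match, 13 had a difference above 0, with a median of 0.31, and 3 lay above and 3 below. Among these 20, some windows belong to another start than that of the most abundant transcript. The distance was 2776 bases for Mcm10, 838 for Rfc1, 466 for E2f1, 204 for Tk1 and 106 for Cdc45. Of the 7 members without a window, 3 had a difference above 0, with a median of -0.026, and 1 lay above and 1 below. Whether the match bears on the difference was not tested.

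The rest of the replication machinery, 63 other genes, had a lower median. Its median difference was 0.10, and 37 genes were above 0 (58.7%). Of the 63, 17 lay above both WT libraries (27.0%, against 14.3% of all genes) and 5 below (7.94%, against 21.4%). Among genes with a mean of at least 500, 22.7% lay above and 12.8% below. The share of the 63 above was close to the 26.2% of the 42 members, and their share below was under the members' 11.9%. Of these other genes, 0 were called by limma-trend or had a deposited q-value under 0.05. Rrm2b, the p53-responsive small subunit of ribonucleotide reductase, stood at 99.19 in WT 1, 83.80 in WT 2, 267.6 in KO 1 and 291.2 in KO 2. Asf1b, a histone chaperone, stood at 24.80 in WT 1, 68.65 in WT 2, 209.4 in KO 1 and 193.6 in KO 2. Pole4, a small subunit of polymerase epsilon, stood at 57.48 and 209.0 against 276.3 and 521.1. Topbp1, a helicase activation factor, stood at 1320 and 1006 against 1534 and 1871, and Wdhd1, which links polymerase alpha to the helicase, at 288.6 and 103.0 against 358.7 and 531.0. Pold4, the smallest subunit of polymerase delta, was lower in the KO-labelled libraries, with 737.2 and 305.9 against 192.0 and 238.2, while Pold1 of the same enzyme was higher.

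For neighbouring phases of the cycle the medians were near 0. The 15 genes of G1 entry and its brakes had a median difference of 0.06. Of these, 5 lay above both WT libraries (33.3%, against 14.3% of all genes) and 2 below (13.3%, against 21.4%). Cdk4, a G1 kinase, stood at 1176 in WT 1, 1135 in WT 2, 1675 in KO 1 and 1907 in KO 2, with a q-value of 0.0444 in the authors' deposited table. Its cyclin partners were higher too in both KO-labelled libraries: Ccnd2 stood at 2817 and 3361 against 4100 and 10685, and Ccnd1 at 1348 and 1308 against 1707 and 1740. The inhibitor Cdkn1a was also higher (5148 and 5003 against 5704 and 5928), and Cdkn1c (446.4 and 643.1 against 287.9 and 426.0) and Rbl2 (1725 and 1633 against 1234 and 1475) lower. The 24 mitosis genes had a median of 0.06, with 4 above (16.7%) and 5 below (20.8%), near the shares over all genes. Of the genes with a mean of at least 500, 22.7% lay above and 12.8% below. Against these, the mitosis genes had a lower share above and a higher share below. The G1 shares were 33.3% and 13.3%. Bub1b, a spindle checkpoint kinase, stood at 485.8 in WT 1, 522.0 in WT 2, 923.0 in KO 1 and 929.7 in KO 2, with a deposited q-value of 0.0317 in the authors' table. Mki67, the proliferation marker, stood at 6489 and 8244 against 9025 and 11002, and Ccnb1 at 512.9 and 312.0 against 678.6 and 660.9. Nusap1, a spindle protein, stood at 144.3 and 234.2 against 268.5 and 532.7. Cdk1, the mitotic kinase, differed the other way with 332.5 and 285.7 against 218.1 and 92.64, as did the kinesin Kif20a with 399.0 and 357.4 against 153.2 and 249.8. None of these passed the limma-trend test.

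Cell type markers also differed between libraries. All 15 colon epithelium markers were present in every library. Relative to the WT mean, the summed level of the 42 replication and S phase genes was 0.957 in WT 1, 1.04 in WT 2, 1.05 in KO 1 and 1.35 in KO 2. A higher sum in KO 2 was not particular to them. The genes of G1 entry and its brakes stood at 1.05 in KO 1 and 1.45 in KO 2. The mitosis genes stood at 1.14 and 1.19, and the other replication genes at 1.00 and 1.18. Such sums weigh abundant genes most. Ccnd2 alone held 10685 of the G1 sum of 30567 in KO 2, against 2817 of 21127 in WT 1. Mki67 alone held 11002 of the mitosis sum of 27785 in KO 2, against 6489 of 20749 in WT 1 and 8244 of 25942 in WT 2. So the higher G1 and mitosis sums in KO 2 do not describe these lists gene by gene. The summed level of 12 crypt stem and progenitor markers was 1.15 in KO 1 and 1.11 in KO 2. Of the 12, 3 lay above both WT libraries (25.0%, against 14.3% of all genes) and 0 below (against 21.4%). Among genes with a mean of at least 500, 22.7% lay above and 12.8% below. The summed level of the epithelium markers was 1.09 in KO 1 and 0.860 in KO 2, with 3 of 15 above and 3 below. Leukocyte markers, of which 14 of 16 were listed, were at 0.663 and 0.504. Their sums ranged from 1818 to 1888 in WT and from 934.7 to 1228 in the KO-labelled libraries. Of the 14, 0 lay above both WT libraries and 4 below (28.6%, against 21.4%). Cd4 and Lyz2 were at 0 in both KO 1 and KO 2, and 3 markers were at 0 in WT 1. Of the 25796 genes listed, 2621 were at 0 in both KO-labelled libraries and 1100 in both WT libraries. Stroma and vessel markers spread from 2259 to 4611 in WT and from 2098 to 2795 in the KO-labelled libraries. The part of crypt, leukocyte or stromal content in the result was not tested.

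**Figure D5:**
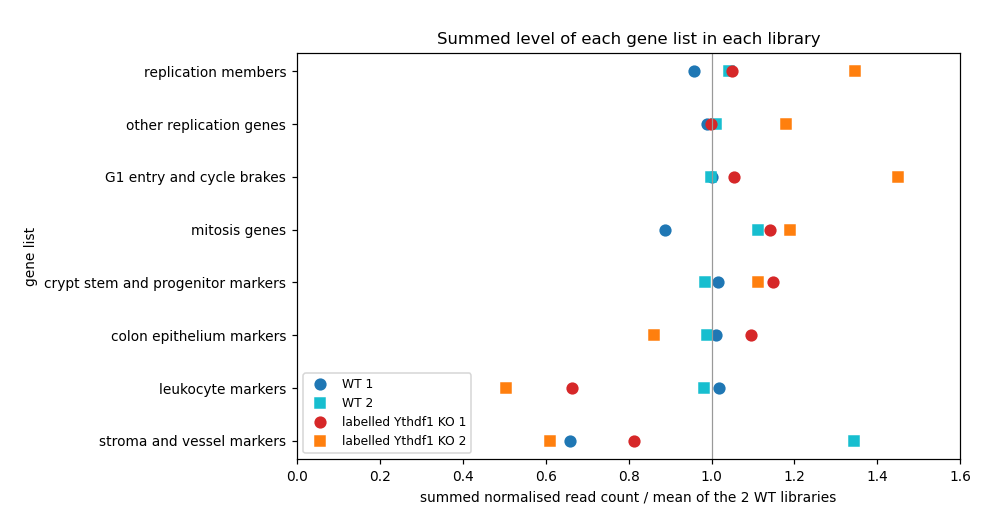
Summed normalised read count of each gene list in each library, divided by the mean of the 2 WT libraries (grey line at 1). KO 2 stands at 1.35 for the replication and S phase genes, 1.45 for G1 entry and its brakes and 0.504 for the leukocyte markers. KO 1 stands at 1.05, 1.05 and 0.663. Sums weigh abundant genes most, and Ccnd2 alone held 10685 of the G1 sum of 30567 in KO 2.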

How the data were processed

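Reads came from 2 WT and 2 KO-labelled input libraries. Per the submitters' processing notes, build mm10 and, among other tools, Bowtie2 2.2.5 and SAMtools 1.3.1 were used, with no roles given. The sources used here do not name the counting program. The authors deposited, per the file headers, a normalised expression signal per RefSeq transcript. They also deposited a p-value, a q-value and a log2 fold change. All signals were whole multiples, within 0.001, of a step per library, so reads were recovered. Isoforms count shared reads again, and no transcript with a mean under 11.6 was listed.

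Per gene the most abundant transcript was kept. Genes with at least 1 in at least 2 libraries were fitted as log2(value + 1) with limma-trend 3.58.1 (robust, R 4.3.3), with Benjamini-Hochberg adjustment over all 23116. Differences are on that scale: the added 1 shrinks ratios of low values, and a mean of logs can differ from the log ratio of means. The plan named no such unit; it was handled as normalised values. edgeR 4.0.16 and DESeq2 1.42.0 ran on recovered reads. Scripts were tested on simulated data. The main fit did not pair libraries by replicate number, and the labels do not say whether same-numbered libraries belong together. Pclaf was listed as 2810417H13Rik and matched by gene ID. Every member was named. Values per library were given for members, and at most 6 genes of each other cycle list with the smallest p, whose groups did not overlap or whose adjusted p or deposited q was under 0.05. The library values of Cdc45, Pcna, Rfc3, Rpa2 and Ccne1 were chosen after they were seen. Members and lists were chosen with earlier results of these data known.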

Additional observations from a re-analysis of the deposited data

How the results depend on the processing

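Over 13 alternatives, the count of genes called was 0 in the main fit, 524 in limma without a trend and 1431 with DESeq2 on recovered reads, and 0 to 36 when leaving out a library (2 without WT 1, 6 without WT 2, 36 without KO 1, 0 without KO 2). Members called numbered 2 with DESeq2 and 0 in every other alternative. The members' median difference of 0.35 lay between 0.30 and 0.39 under the other alternatives and between 0.051 and 0.52 on leaving out a library. The 11 members above both WT libraries were 7 among genes with a mean of at least 500 and 15 to 23 with a library left out. The 5 below were 2 and 8 to 14. With fewer libraries or genes, such counts shift by construction; the cause of the other changes was not tested. With the replicate number as a block, the median was 0.35 and 0 genes were called (1760 against 1257 at an unadjusted p under 0.05). Same-numbered libraries did not deviate together (correlation -0.00795 over all genes tested and 0.0225 at a mean of at least 500). For the 34 genes given by the naming rule (16 members and 18 others; members with overlapping groups are not among them), of 426 values 421 kept direction and side of the threshold, 0 reversed, and 5 passed it: Pold1, Rrm2, Cdk4 and Bub1b with DESeq2, and Ccnd2 without KO 1 (log2 difference 1.80, adjusted p 0.00356). These genes were chosen because both KO-labelled values lay on the same side of both WT values. Their direction therefore could not reverse with a library left out, another added value or filter, no trend or the replicate block. Only summed transcripts, quantile normalisation, edgeR and DESeq2 could have reversed it. In fits without a library, a lone library was assumed to vary like the other group. Gins1, Cdc45 in KO 2 and Ccne1 in WT 2 rest on few reads, so their counting error is large.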
